A study of Mus musculus with 12 samples.

Results

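The Ifit gene cluster on mouse chromosome 19 and the neighbouring pair Rsad2 and Cmpk2 on chromosome 12 encode antiviral proteins that interferon induces. Open chromatin at both loci was followed by ATAC-seq, which marks DNA that the Tn5 transposase can reach, in bone marrow-derived macrophages. Every peak between 34600000 and 34770000 on chromosome 19 (the window given for Ifit2, Ifit3 and Ifit1) and between 27090000 and 27200000 on chromosome 12 (given for Rsad2 and Cmpk2) was taken, in mm9 coordinates, and peaks that overlapped in any of the libraries were chained into regions. This gave 35 of the 115231 regions of the series, 24 in the Ifit window and 11 in the Rsad2-Cmpk2 window, and no region crossed a window edge. They are numbered along the chromosome as I1 to I24 and R1 to R11. Gene annotation of mm9 was not used here, so the place of the genes in these windows was not checked and no region is assigned to a promoter, exon or intron.

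The macrophages came from female C57BL/6 mice that lack the long noncoding RNA lincRNA-EPS (KO) or are wild type (WT), and were grown from bone marrow with L929 supplement at 20% over 9 days. LPS, the outer membrane component of bacteria that Toll-like receptor 4 senses, was given at 100 ng/ml for 0, 2 or 6 h, which makes 6 groups of 2 libraries by genotype and time. Comparisons of times pool KO and WT, with 4 libraries a time, and comparisons of genotypes use 6 libraries each or 2 within a time. How the KO allele was made is not in the labels, nor is the animal or culture behind each library, so a p-value here reflects library-to-library spread alone, which may be technical. The peak names of the 4 lists labelled 2 h read 1 h instead, a conflict the labels do not settle. The peak lists hold no gene names, and neither the deleted locus nor macrophage markers were examined here. The 12 libraries held 54771 to 91610 peaks.

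LPS acts on these loci in 2 steps. Receptor signalling activates IRF3 and NF-κB and induces interferon-β, and secreted interferon then acts through its own receptor and, at its target genes, through the interferon-stimulated response element (ISRE). Ifit1 encodes a protein that binds viral RNA with an incompletely methylated cap, Ifit2 an RNA-binding relative, and Ifit3 a partner that in human cells stabilises IFIT1. Rsad2 encodes viperin, an enzyme that turns CTP into a chain-terminating nucleotide, and Cmpk2 a mitochondrial nucleotide monophosphate kinase. In RefSeq the order on chromosome 19 is Ifit2, Ifit3, Ifit1bl1, Ifit3b, Ifit1bl2, the pseudogene Cnn2-ps and Ifit1, and Rsad2 and Cmpk2 are direct neighbours on opposite strands.

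The promoters are shown because interferon acts on genes of this kind through the ISRE, with Cmpk2 as one without a match. Each sequence is the 250 bases before the RefSeq start in GRCm38.p6, read 5′ to 3′ on the strand of the gene, with matches to the ISRE core, GAAA followed by any 2 bases and GAAA, on either strand in capitals. Coordinates of this build were not converted and cannot be set against the mm9 regions.
Ifit1 promoter, chr19:34640639-34640888, plus strand: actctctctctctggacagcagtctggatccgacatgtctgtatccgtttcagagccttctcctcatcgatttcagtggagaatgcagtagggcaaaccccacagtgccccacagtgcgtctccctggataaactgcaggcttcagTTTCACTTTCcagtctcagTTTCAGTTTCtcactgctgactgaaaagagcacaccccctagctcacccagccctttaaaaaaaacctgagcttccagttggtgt
Ifit3 promoter, chr19:34583279-34583528, plus strand: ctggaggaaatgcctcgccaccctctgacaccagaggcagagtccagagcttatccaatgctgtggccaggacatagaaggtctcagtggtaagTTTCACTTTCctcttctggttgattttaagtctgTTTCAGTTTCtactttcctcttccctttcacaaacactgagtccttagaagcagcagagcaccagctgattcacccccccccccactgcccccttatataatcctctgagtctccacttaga
Rsad2 promoter, chr12:26456453-26456702, minus strand: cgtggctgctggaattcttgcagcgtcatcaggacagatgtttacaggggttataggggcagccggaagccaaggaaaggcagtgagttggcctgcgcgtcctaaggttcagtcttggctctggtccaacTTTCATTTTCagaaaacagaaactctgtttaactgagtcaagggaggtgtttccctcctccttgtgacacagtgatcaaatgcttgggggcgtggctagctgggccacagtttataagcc
Cmpk2 promoter, chr12:26468965-26469214, plus strand: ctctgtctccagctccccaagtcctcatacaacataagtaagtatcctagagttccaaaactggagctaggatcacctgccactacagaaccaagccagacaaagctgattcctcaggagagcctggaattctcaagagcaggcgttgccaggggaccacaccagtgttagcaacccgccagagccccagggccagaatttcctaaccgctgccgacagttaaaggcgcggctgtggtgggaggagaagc
Ifit1 and Ifit3 each held 2 ISRE cores and Rsad2 held 1, all in the reverse orientation, so that TTTC stands first and last on the gene's strand. In Ifit1 they began 104 and 85 bases before the start, in Ifit3 156 and 122 bases before it, and in Rsad2 120 bases before it. The windows before the starts of Cmpk2 and of Ifit2 had no match. The core occurred in 978 of 32851 RefSeq promoters of this length (2.98%). The NF-κB motif, GGGA followed by any 4 bases and CC and searched on both strands, matched once before the start of Rsad2 and once before the first start of Ifit2, and in 5793 of the 32851 promoters (17.6%). A match is a string of letters and not a measured binding site.

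Both windows already held open chromatin before LPS. Calls in all 12 libraries were made at 10 of 24 regions of the Ifit window and at 5 of 11 of the Rsad2-Cmpk2 window, beside 37.2% of all regions. The Ifit regions of this kind were I1, I4, I8, I10, I11, I12, I13, I17, I21 and I23, with a median width of 844 bp, and those on chromosome 12 were R1, R4, R8, R9 and R10, with a median of 996 bp. The other 14 and 6 regions were narrower, at medians of 367 and 410.5 bp, beside 775 bp for all regions of the series called in 12 libraries and 491 bp for all regions. Gaps between neighbouring regions ran from 273 to 16580 bp in the Ifit window and from 979 to 17961 bp in the Rsad2-Cmpk2 window.

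More Ifit regions were called at 6 h than at 0 h, with 17 to 20 per library against 11 to 14, while the ranges of the Rsad2-Cmpk2 window, 7 to 10 and 6 to 8, overlapped. A library called 12 ± 1.41 Ifit regions at 0 h, 13.75 ± 0.957 at 2 h and 17.75 ± 1.5 at 6 h (mean ± SD, n = 4 libraries each). For Rsad2-Cmpk2 the numbers were 7 ± 1.15 at 0 h, 9.25 ± 1.71 at 2 h and 8.25 ± 1.26 at 6 h. The mean number of called regions at 6 h was 1.48 times that at 0 h for Ifit and 1.18 times for Rsad2-Cmpk2. The whole lists were longer too, with 78766 to 91610 peaks at 6 h and 54771 to 67128 at 0 h. Their ratio of means was 1.33, counted in peaks and not in regions, and a region can hold several peaks of a list. Called peaks covered 9893 ± 681 bp of the Ifit window at 6 h and 6609 ± 558 bp at 0 h, a ratio of 1.497, and 5062 ± 427 bp of the Rsad2-Cmpk2 window at 6 h and 4133 ± 497 bp at 0 h, a ratio of 1.22. Over the whole genome the ratio of covered length was 1.34.

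**Figure D1:**
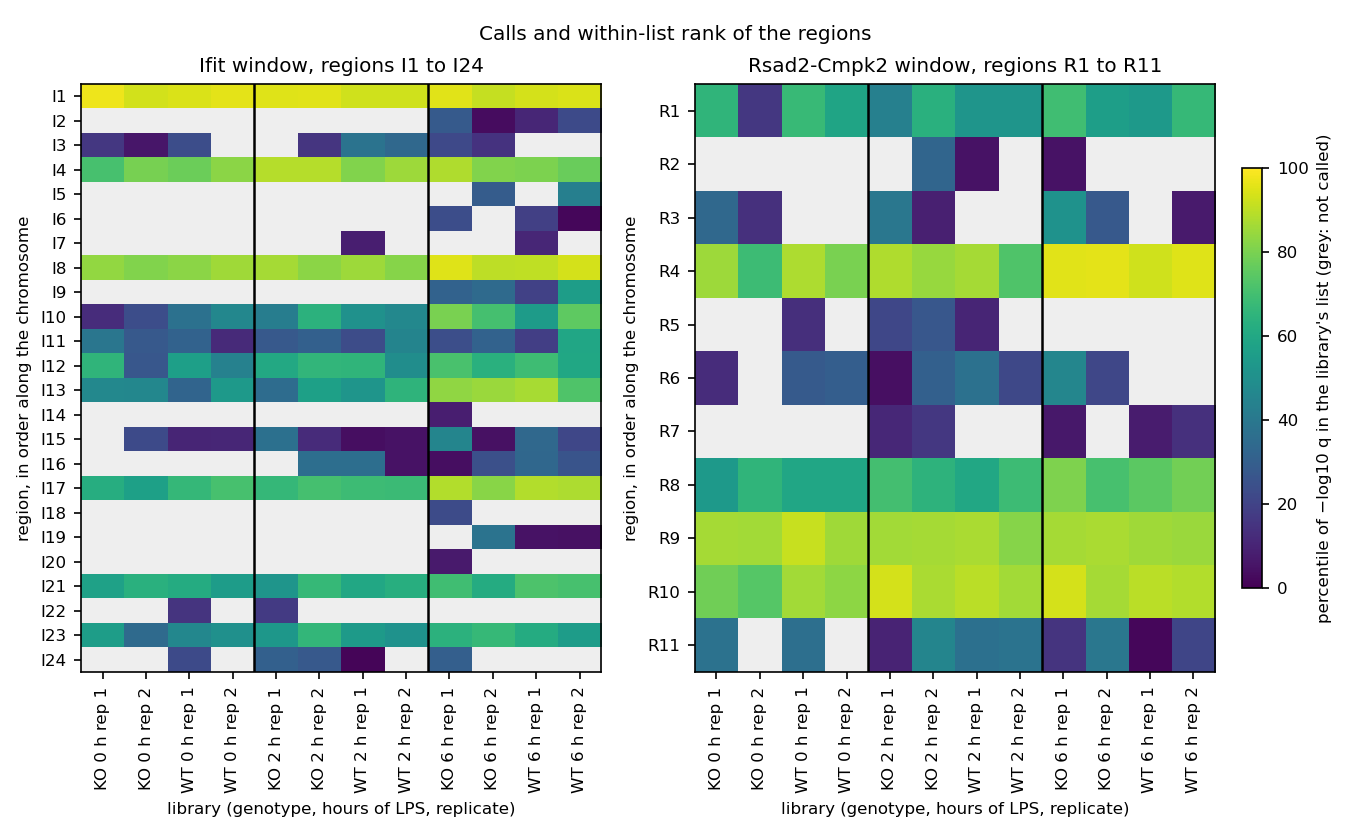
Each column is 1 of the 12 libraries and each row a region of the Ifit window (left) or the Rsad2-Cmpk2 window (right), coloured by the percentile of its −log10 q in that library's list, with grey for not called. The 15 rows without grey are the regions called in every library, and rows such as I2 and I9 are coloured at 6 h only.

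For the 15 regions called in every library, accessibility was read as summit coverage over library background, which is the number of reads stacked at the summit divided by the lowest local background in the same list. Both numbers were recovered from the authors' fold and p for each peak, and this measure was chosen after the data were seen. The summit of a member held 14 to 138 reads, so single values at weak regions carry a large counting error, and reads without molecular identifiers are not independent molecules. In a bulk library a larger share of open cells and a more open site in each cell cannot be told apart.

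By 6 h of LPS summit coverage had risen most at I10 and I13 in the Ifit window, by 2.11-fold and 2.07-fold, and by 1.65-fold at I17 and 1.66-fold at R4. Region I10, at 34657206 to 34658219, had a summit coverage over background of 7.90 and 9.82 in KO and 9.78 and 10.4 in WT at 0 h, of 8.96 and 12.5 in KO and 10.5 and 11.6 in WT at 2 h, and of 21.8 and 21.2 in KO and 13.9 and 24.3 in WT at 6 h. All 4 values at 6 h lay above all 8 values at the earlier times, with WT 6 h replicate 1 the nearest to them. It averaged 20.3 ± 4.49 in libraries at 6 h and 9.47 ± 1.08 in those at 0 h (n = 4 each, SD), and the fitted increase was 2.11-fold (log2 difference 1.08 ± 0.16 SE, limma adjusted p = 4.75e-05).

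Region I13, at 34681621 to 34682728, gave 13.5 and 14.03 in KO and 9.35 and 13.2 in WT at 0 h, 10.03 and 12.8 in KO and 12.5 and 17.2 in WT at 2 h, and 23.3 and 29.9 in KO and 27.3 and 22.5 in WT at 6 h. The libraries at 6 h again stood apart from the others, and KO and WT values overlapped at 6 h. The fitted increase from the untreated state was 2.07-fold (log2 difference 1.05 ± 0.15, limma adjusted p = 3.54e-05).

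Region I17, at 34714834 to 34715719, had 19.8 and 18.9 in KO and 19.1 and 19.6 in WT at 0 h, 17.6 and 17.7 in KO and 19.1 and 21.6 in WT at 2 h, and 29.6 and 29.9 in KO and 31.5 and 37.1 in WT at 6 h. No value at 6 h overlapped an earlier one, and the increase was 1.65-fold (log2 difference 0.72 ± 0.12, limma adjusted p = 0.000200).

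On chromosome 12 the largest change was at R4, at 27124034 to 27125031. Its summit coverage over background was 31.0 and 23.1 in KO and 29.8 and 25.1 in WT at 0 h, 28.7 and 24.3 in KO and 27.7 and 23.7 in WT at 2 h, and 41.3 and 49.7 in KO and 38.2 and 52.2 in WT at 6 h. The groups at 0 and 6 h did not overlap, and the increase was 1.66-fold (log2 difference 0.73 ± 0.15, limma adjusted p = 0.000877).

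Smaller increases passed the same test at R8, R10 and I8. Region R8, at 27140828 to 27141682, had 25.4 and 29.5 in KO and 23.8 and 22.3 in WT at 0 h, 25.4 and 22.3 in KO and 21.7 and 30.6 in WT at 2 h, and 35.3 and 35.0 in KO and 32.6 and 42.6 in WT at 6 h (1.44-fold, adjusted p = 0.00852). Region R10, at 27153835 to 27155026, had 31.0 and 30.9 in KO and 32.7 and 29.9 in WT at 0 h, 37.3 and 29.9 in KO and 33.6 and 37.1 in WT at 2 h, and 40.1 and 39.1 in KO and 39.3 and 44.0 in WT at 6 h (1.30-fold, adjusted p = 0.0307). At both, every value at 6 h was above every value at 0 h. Region I8, at 34644370 to 34645171, had 28.8 and 26.7 in KO and 23.8 and 25.9 in WT at 0 h, 24.7 and 20.0 in KO and 24.1 and 25.0 in WT at 2 h, and 33.2 and 34.5 in KO and 29.96 and 38.0 in WT at 6 h (1.29-fold, adjusted p = 0.0436). The lowest value at 6 h, in WT, was only slightly above the highest at 0 h, in KO. The call at I8 was lost without any 1 library other than WT 6 h replicate 1 (adjusted p up to 0.1301). At R10 it was lost without any 1 library at 0 h, KO 6 h replicate 1 or 2, or WT 6 h replicate 2 (up to 0.0991), while those at I10, I13, I17, R4 and R8 held in all 14 alternative fits.

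**Figure D2:**
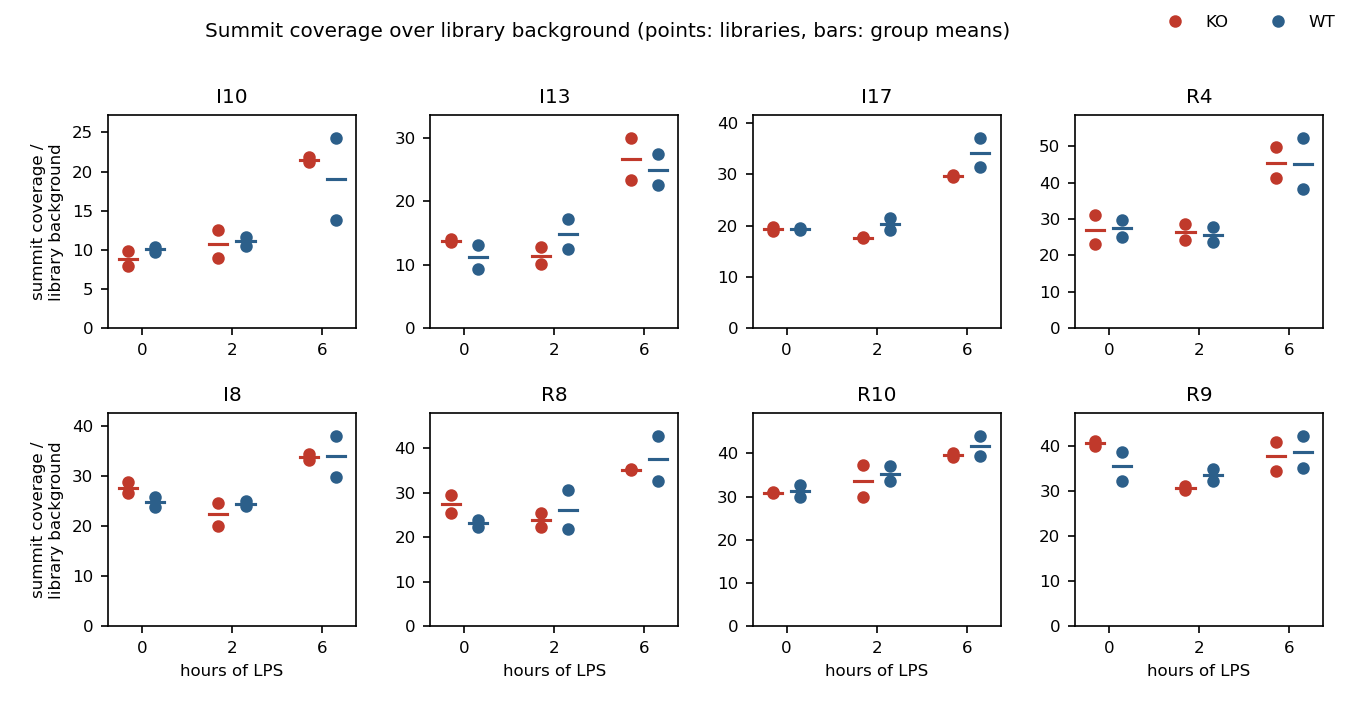
Summit coverage over library background (vertical axis, linear, from 0) by hours of LPS in KO (red, left of each pair) and WT (blue) libraries, for the 7 regions that rose by 6 h and for R9, which did not pass the test. Points are libraries and bars are means of 2, and at each of those 7 the 4 points at 6 h lie above all others, though narrowly at I8.

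In this fit 7 of the 15 members were higher at 6 h and 0 were lower, beside 12.3% and 13.3% of the 42811 regions called in all libraries that were higher and lower. The median log2 difference of the 15 was 0.26, beside −0.07 over all regions. The main test, limma on normal scores of the ranks of −log10 q among the same 42811 regions, called 4 members higher and 0 lower, beside 10.7% and 10.8% of all regions. These were I10 (difference 1.203 ± 0.26 SE in normal scores, adjusted p = 0.00808), I13 (1.18 ± 0.27, adjusted p = 0.0111), I17 (0.71 ± 0.13, adjusted p = 0.00430) and R4 (0.69 ± 0.19, adjusted p = 0.0232). In ranks, I10 stood at the 46.3 ± 15.2 percentile at 6 h and at the 11.6 ± 7.68 percentile at 0 h, and R4 at the 89.8 ± 2.83 and the 71.8 ± 9.46 percentile at 6 and 0 h (SD, n = 4 each). When the fold of column 7 was ranked instead, 0 members passed as higher and R9 passed as lower (difference −0.93, adjusted p = 0.00607). The differences were then 0.70 at I10 (adjusted p = 0.0778), 0.81 at I13 (adjusted p = 0.0556) and 0.14 at I17 (adjusted p = 0.565), and the direction at R4 turned (−0.53, adjusted p = 0.158). The rank call at R4 was also lost with a centred log2 of column 9 and without replicate 2 of any group at 0 or 6 h.

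Column 7 divides the summit by its local background, and that background also changed. The p behind column 9 uses the same background, and its part in the difference between the columns was not tested. Local background over library background at R4 was 1.94 and 1.80 in KO and 2.04 and 2.32 in WT at 0 h, 2.12 and 1.96 in KO and 2.15 and 2.25 in WT at 2 h, and 4.54 and 4.65 in KO and 4.01 and 5.22 in WT at 6 h. This was a 2.28-fold increase by 6 h (log2 difference 1.19 ± 0.09, limma adjusted p = 9.94e-05), beside a 1.66-fold increase of the summit. The deposited fold at R4 was 9.12 ± 0.549 at 6 h and 10.9 ± 1.72 at 0 h, while its −log10 q averaged 68.0 ± 7.62 in the 4 libraries at 6 h and 39.5 ± 12.3 in the 4 at 0 h, a value that also depends on depth (± SD).

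The deposited columns at I10 and I13 had higher means at 6 h in both genotypes. At I10 the fold averaged 8.22 ± 0.545 in KO and 7.39 ± 1.79 in WT at 6 h, against 5.36 ± 0.831 in KO and 6.68 ± 0.654 in WT at 0 h (SD, n = 2 libraries each). Single values at 6 and 0 h overlapped there. At I13 it averaged 9.33 ± 0.294 in KO and 9.17 ± 1.02 in WT at 6 h, against 7.39 ± 0.466 in KO and 6.48 ± 1.03 in WT at 0 h. The −log10 q of I13 averaged 44.3 ± 4.41 in KO and 38.2 ± 12.6 in WT at 6 h, against 13.4 ± 0.53 in KO and 14.3 ± 5.46 in WT at 0 h. At R9 the mean fold was lower at 6 h, at 6.93 ± 0.461 in KO and 6.8 ± 0.0119 in WT, against 9.73 ± 0.78 in KO and 9.81 ± 1.22 in WT at 0 h. Single fold values at 6 and 0 h did not overlap at I13 or R9. These values have no test of their own.

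Local background over library background was called higher by 6 h at 9 of the 15 members and lower at 0, beside 23.0% and 11.9% of all regions. How far this value holds reads of the region itself was not tested. At I10 the local background was 1.21 and 1.07 in KO and 1.22 and 1.11 in WT at 0 h, 1.0 and 1.01 in KO and 1.13 and 1.18 in WT at 2 h, and 2.27 and 2.30 in KO and 1.95 and 2.40 in WT at 6 h, an increase of 1.94-fold (adjusted p = 0.000121). The groups at 0 and 6 h were far apart for their spread. Increases were also called at I13 (1.80-fold), I17 (1.78-fold), R10 (1.69-fold), R8 (1.65-fold), I8 (1.64-fold) and R9 (1.52-fold), and at I4 (1.26-fold, adjusted p = 0.0162). The call at I4 was lost when either KO 6 h replicate 2 or WT 0 h replicate 2 was left out, and the other 8 held in all 14 alternative fits. The local background of R1 passed as lower with each library centred on its median (log2 difference −0.24, limma adjusted p = 0.0244). Its difference was −0.23 without KO 0 h replicate 2.

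Region R9, at 27144832 to 27145511, had a local background that rose and a summit that did not pass the test. Its summit coverage over background was 41.2 and 39.98 in KO and 38.7 and 32.3 in WT at 0 h, 31.2 and 30.2 in KO and 32.3 and 34.9 in WT at 2 h, and 34.4 and 41.0 in KO and 35.2 and 42.2 in WT at 6 h, with full overlap between 0 and 6 h (log2 difference 0.01 ± 0.13, adjusted p = 0.981). Its local background was 3.98 and 3.25 in KO and 3.24 and 3.26 in WT at 0 h, and 4.95 and 5.25 in KO and 4.85 and 5.82 in WT at 6 h (adjusted p = 0.00255). The summits of R8, R9 and R10 lie 3809 and 9042 bp apart, so their local backgrounds can share reads. The part of neighbouring summits, and of each region's own reads, in these backgrounds was not tested.

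**Figure D3:**
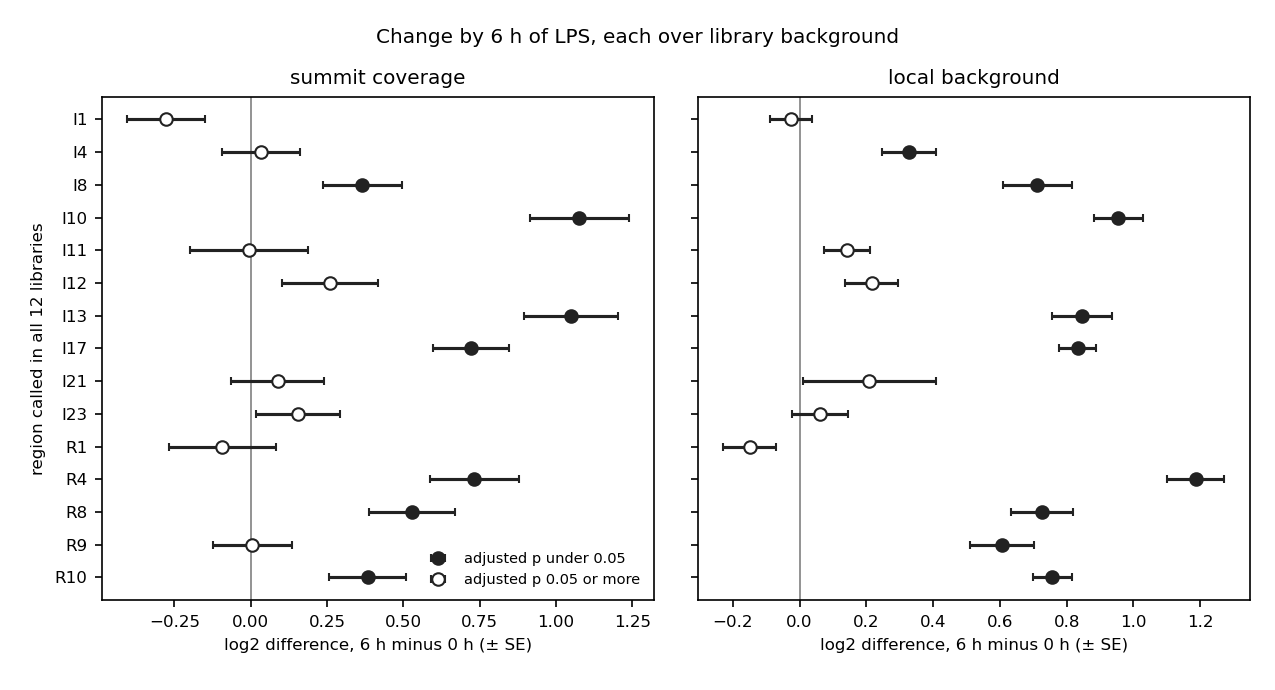
Log2 difference between 6 h and 0 h of LPS (horizontal axis, ± SE of the limma fit over 12 libraries) of summit coverage (left) and local background (right), each over library background, for the 15 regions called in all libraries. Filled points passed an adjusted p of 0.05, which 7 did for the summit and 9 for the background, all to the right of 0.

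The remaining members called in every library did not pass the test at the summit. Region I1, at 34600719 to 34602279, was the strongest of the Ifit window and had 58.7 and 51.2 in KO and 43.4 and 43.1 in WT at 0 h, 40.9 and 38.8 in KO and 38.6 and 44.4 in WT at 2 h, and 38.3 and 40.1 in KO and 37.1 and 45.8 in WT at 6 h. Its difference was −0.28 ± 0.13 (adjusted p = 0.118), and the 2 highest values were those of the KO libraries at 0 h, the shallowest of the series. With each library centred on its median I1 passed as lower (−0.28, adjusted p = 0.0235). Region I4, at 34624803 to 34625689, had 28.2 and 32.3 in KO and 25.5 and 26.3 in WT at 0 h, 31.2 and 28.6 in KO and 26.4 and 32.8 in WT at 2 h, and 29.6 and 29.9 in KO and 25.8 and 29.3 in WT at 6 h, without separation of times.

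At I12 and I21 the times overlapped. Region I12, at 34676346 to 34676977, had 19.2 and 11.2 in KO and 15.3 and 11.2 in WT at 0 h, 14.3 and 15.8 in KO and 16.5 and 13.4 in WT at 2 h, and 16.7 and 17.5 in KO and 16.1 and 16.0 in WT at 6 h. Region I21, at 34736459 to 34737157, had 16.4 and 18.9 in KO and 16.2 and 11.6 in WT at 0 h, 12.2 and 14.8 in KO and 12.2 and 17.7 in WT at 2 h, and 14.6 and 15.2 in KO and 16.1 and 20.6 in WT at 6 h.

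I11, I23 and R1 did not separate the times either. Region I11, at 34673714 to 34674174, had 12.98 and 11.9 in KO and 10.6 and 7.18 in WT at 0 h, 8.60 and 8.54 in KO and 8.24 and 12.9 in WT at 2 h, and 8.37 and 11.05 in KO and 7.87 and 16.0 in WT at 6 h. Region I23, at 34756914 to 34757485, had 14.7 and 11.9 in KO and 11.5 and 10.8 in WT at 0 h, 10.8 and 13.5 in KO and 10.9 and 12.1 in WT at 2 h, and 12.6 and 16.1 in KO and 12.4 and 13.3 in WT at 6 h. Region R1, at 27099410 to 27100405, had 22.0 and 11.2 in KO and 19.6 and 16.8 in WT at 0 h, 12.2 and 15.8 in KO and 14.2 and 15.9 in WT at 2 h, and 16.7 and 14.7 in KO and 13.5 and 18.8 in WT at 6 h. The summit of I11 lies 2693 bp from that of I12, which lies 5660 bp from that of I13. Region I13 rose, while I11 and I12 did not pass the test in the fit of all 12 libraries (limma adjusted p = 0.989 at I11 and 0.240 at I12). The log2 difference at I12 was 0.26 in that fit. It was 0.45 without KO 0 h replicate 1, which had the highest value at I12 (19.2).

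New calls appeared in the Ifit window, where I2, I9 and I16 were called by all 4 libraries at 6 h and by 0 of the 4 at 0 h. These are 3 of 24 Ifit regions (12.5%) and 0 of 11 Rsad2-Cmpk2 regions, beside 5.54% of all regions. Region I9, at 34651519 to 34652327, had the highest mean fold and −log10 q of them, with a fold of 4.64 and 5.02 in KO and 4.55 and 6.89 in WT at 6 h and a −log10 q of 10.5 and 9.998 in KO and 7.11 and 18.0 in WT. Region I2, at 34613873 to 34614253, had a fold of 5.29 and 4.10 in KO and 4.36 and 5.34 in WT at 6 h and a −log10 q of 9.69 and 4.32 in KO and 5.59 and 7.62 in WT. Neither had a call at 2 h, in 4 libraries.

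Region I16, at 34711407 to 34711777, was called earlier, in 1 KO and both WT libraries at 2 h. Its calls continued at 6 h. Its fold was 4.61 in that KO and 4.53 and 3.45 in the WT libraries at 2 h, and 2.76 and 3.76 in KO and 3.78 and 3.67 in WT at 6 h. Its −log10 q was 11.3 in the KO library and 12.04 and 5.20 in WT at 2 h, and 4.86 and 7.65 in KO and 9.75 and 8.41 in WT at 6 h. The 3 gained regions are thus weak peaks, at mean percentiles of 16.3 ± 11.3 (I2), 35.3 ± 15.1 (I9) and 21.9 ± 12.9 (I16) of −log10 q at 6 h (SD, n = 4). The calls change with the setting. In lists thinned to the lowest background coverage 0 of them met the rule, beside 4743 of 107177 regions of the series. There I9 was called in 2 KO and 1 WT libraries at 6 h. With a −log10 q of at least 5 only I9 met the rule, beside 6001 of 108444 regions. The part of depth in these calls was not tested. With the rule read over the libraries left, I19 met it too without KO 6 h replicate 1. Likewise I6 and R7 met it without KO 6 h replicate 2.

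A wider count took regions called at no earlier time. Of the Ifit regions 8 of 24 (33.3%) were called at 6 h only, in at least 1 library, which were I2, I5, I6, I9, I14, I18, I19 and I20, and 0 of 11 Rsad2-Cmpk2 regions were, beside 18.3% of all regions. Of these I14, I18 and I20 rest on KO 6 h replicate 1, the deepest library, and without it the count was 5. With an equal number of top peaks per library the count was 3. Shares of all regions with that library left out or with equal lists are not given here. Regions I14, I18 and I20 are the 3 members called in 1 library, beside 15.6% of all regions. Region I6, at 34628029 to 34628533, was called in 1 KO and 2 WT libraries at 6 h, and I19, at 34728463 to 34728769, likewise. Region I5, at 34627432 to 34627756, was called in 1 library of each genotype, with a fold of 3.85 in KO and 4.46 in WT. No member was called only at 2 h or only at 0 h, beside 5.11% and 2.3% of all regions. Losses by 6 h numbered 0 of 35, beside 0.127%.

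**Figure D4:**
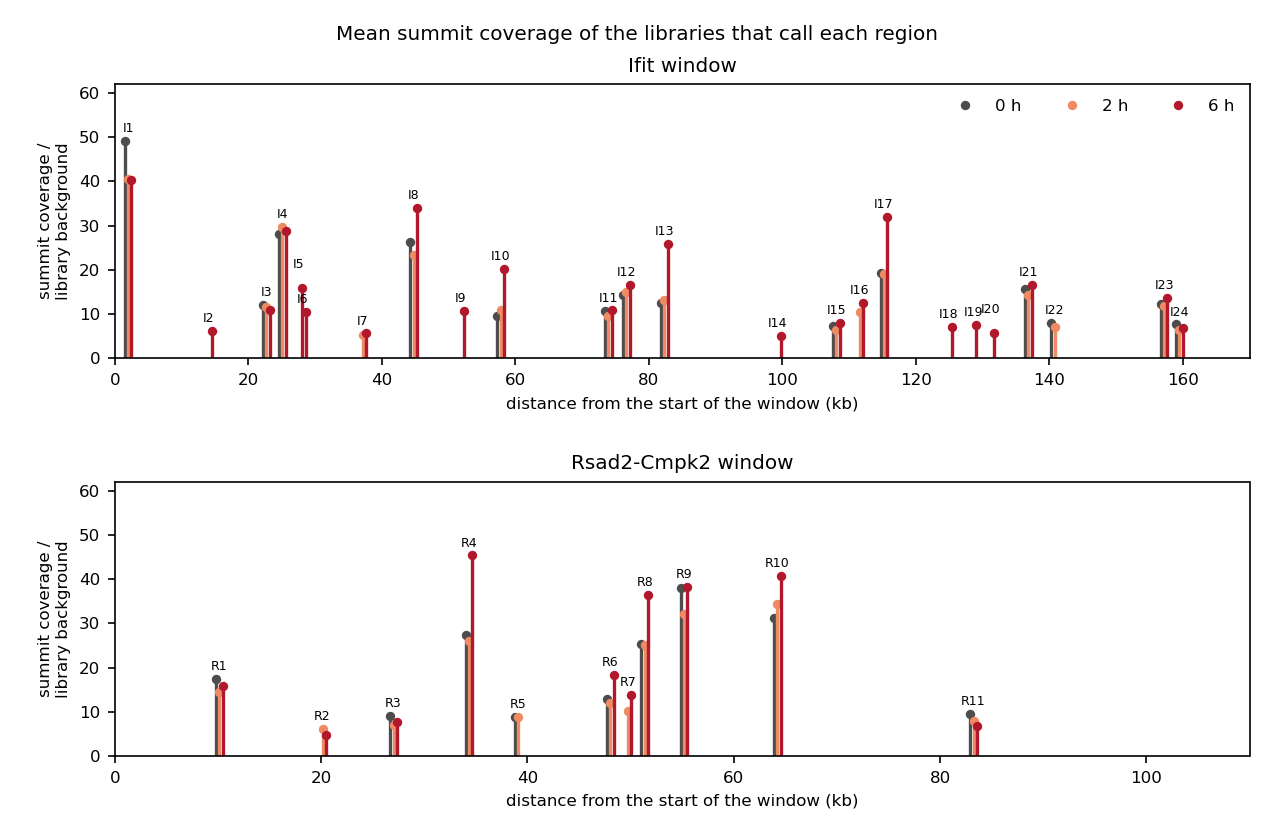
Mean summit coverage over library background (vertical axis) of the libraries that call each region at 0 h (grey), 2 h (orange) and 6 h (red), placed by distance in kb from the start of the Ifit window (top) and the Rsad2-Cmpk2 window (bottom). Stems in red alone are regions called at 6 h only, all of them in the Ifit window. The red point stands above the grey and the orange at I8, I10, I13, I17, R4, R8 and R10, among others.

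Neighbouring DNA was used as a local comparison. The window of equal width before the Ifit window held 34 regions, of which 3 were gained by 6 h and 8 called at 6 h only, and the window after it held 19, with 0 gained and 2 called at 6 h only. The counts inside the Ifit window, also 3 and 8, therefore equalled those just before it, though of 24 regions and not 34. Beside the Rsad2-Cmpk2 window, the window before held 7 regions, with 2 gained by 6 h and 2 called at 6 h only. The window after it held 2 regions with 0 of either kind, as had the 11 regions inside.

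At 2 h of LPS no change was called at these loci. Gained regions were 0 of 35, beside 0.789% of all regions, and lost regions 0 of 35, beside 0.00434%. In the rank test 0 of 15 members passed and 0 had an unadjusted p under 0.05, with differences from −0.26 to 0.49 in normal scores, while 0.488% and 0.0818% of all regions were higher and lower. Summit coverage likewise gave 0 of 15, with 0 at an unadjusted p under 0.05 and log2 differences from −0.26 to 0.20, beside 0.764% of all regions higher and 0.175% lower. Local background gave 0 of 15, with 1 at an unadjusted p under 0.05, beside 0.696% and 0.0631%. The step between 2 and 6 h was not tested.

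No difference in level between KO and WT was called at these loci. Over all times, 0 of 15 members differed between KO and WT in the rank test, with 0 at an unadjusted p under 0.05, differences from −0.14 to 0.23 and a lowest adjusted p of 0.784, and 0.00234% of all regions passed in each direction. Summit coverage gave log2 differences from −0.13 to 0.16 (0 of 15, lowest adjusted p = 1.0, with 0 at an unadjusted p under 0.05), beside 0.0327% of all regions higher and 0.0607% lower. Local background gave −0.13 to 0.06 (0 of 15, 1 at an unadjusted p under 0.05), beside 0.00467% and 0.0491%. Within times, the median summit difference of the members was 0.20 at 0 h, −0.11 at 2 h and −0.02 at 6 h, close to the shift of all 42811 regions, which was 0.21, −0.15 and −0.06. The test of whether the response to 6 h differs between KO and WT passed for 0 of 15 members and 0 of all regions in each measure, with 0 members at an unadjusted p under 0.05 by rank, 1 by summit and 0 by local background.

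Calls separated the genotypes within a time at R3, R7, I3 and R6. Called in both KO and 0 of 2 WT libraries were R3 at 0 h (1 of 35), R3 and R7 at 2 h (2 of 35), and I3 and R6 at 6 h (2 of 35). Of all regions 0.505%, 1.22% and 1.91% were called so at those times. The member shares are higher than these but rest on 1 or 2 regions each. The opposite pattern occurred at 0 of 35 members, beside 2.45%, 1.34% and 1.2%. With 2 libraries against 2 no two-sided exact test can pass 0.05, so these counts have no test. They also move with single libraries. Without KO 6 h replicate 2, 7 regions were called in KO only at 6 h, under a looser rule. It set only KO 6 h replicate 1, the deepest library, against 2 WT libraries. The share of all regions under that rule is not given here.

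Region R3, at 27116761 to 27117235, was called in 6 of 6 KO libraries and in 1 of 6 WT libraries, a pattern that 5 of the 115231 regions share (0.00434%), and it was singled out after its values were seen. The reverse pattern, in 6 of 6 WT and at most 1 of 6 KO libraries, was found at 0 of 35 members and 0.0295% of all regions. The fold at R3 was 6.49 and 5.36 in KO at 0 h, 6.60 and 4.20 in KO at 2 h, and 7.36 and 5.67 in KO and 4.40 in WT replicate 2 at 6 h. Its −log10 q was 9.79 and 6.15 in KO at 0 h, 12.96 and 5.57 in KO at 2 h, and 17.8 and 8.49 in KO and 5.12 in that WT library at 6 h. The KO libraries at 0 h that called R3 were the shallowest of the series, with background coverage of 1.77 and 1.43 reads, while the WT libraries at 0 h that did not had 2.35 and 2.51. At 2 h the KO libraries had 2.79 and 3.04, and the WT libraries, without a call, 3.03 and 2.32. At 6 h the KO libraries had 3.35 and 2.17, WT replicate 1, without a call, 2.67, and WT replicate 2 2.18. The part of depth in these calls was not tested. In the thinned lists R3 was called in 5 KO libraries and 1 WT library. A list gives no value for a library that does not call a region, so the size of the difference at R3 cannot be given.

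Region R6, at 27137782 to 27138245, was not called in WT at 6 h and was also singled out after its values were seen. Its fold was 3.69 in 1 KO library and 4.10 and 3.98 in WT at 0 h, 2.97 and 3.80 in KO and 4.17 and 3.60 in WT at 2 h, and 3.47 and 3.05 in KO at 6 h, with no call in either WT library at that time. Its local background over library background in KO was 5.39 and 5.27 at 6 h, against 2.96 in the KO library that called it at 0 h. Region R7, at 27139578 to 27139849, between R6 and R8, was called in both KO libraries at 2 h (fold 3.27 and 3.30) and in 1 KO and both WT libraries at 6 h (fold 2.42 in KO, 2.63 and 2.83 in WT).

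Among the other regions not called throughout, I15, R11 and I3 were called most often. Region I15, at 34707895 to 34708417, was called in 11 libraries, with a fold of 5.81 in KO and 4.68 and 4.56 in WT at 0 h, 6.33 and 4.28 in KO and 3.92 and 4.29 in WT at 2 h, and 6.55 and 3.89 in KO and 5.24 and 4.92 in WT at 6 h. Region R11, at 27172987 to 27173421, was called in 10 libraries, with a fold of 6.85 in KO and 6.56 in WT at 0 h, 4.48 and 6.92 in KO and 6.20 and 6.93 in WT at 2 h, and 4.46 and 6.62 in KO and 3.78 and 5.18 in WT at 6 h. Neither separated times or genotypes. Region I3, at 34622527 to 34622890, was called in 5 KO and 3 WT libraries with a fold of 3.75 and 3.91 in KO and 4.25 in WT at 0 h, 3.49 in KO and 4.52 and 4.65 in WT at 2 h, and 3.44 and 3.49 in KO at 6 h, where 0 of 2 WT libraries called it. The remaining I7, I22, I24, R2 and R5 were called in 2 to 5 libraries each.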

How the data were processed

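Accessible chromatin was measured by ATAC-seq in 12 libraries. The submitters' processing notes name Bowtie2 2.1.0, Picard, MACS2 and the mm9 build, without their roles. Duplicate handling, any Tn5 offset correction and all caller settings: not given in the sources used here. Duplicates, if kept, would raise peak values, and an offset left uncorrected would shift borders by a few bases. Each deposited list holds peaks called on 1 library, as the file headers and peak names show, with a score in column 5, a fold ratio of summit over local background in column 7, −log10 p in column 8 and −log10 q in column 9, and another column with the summit offset. All of these values are the authors'. Library depth in reads is unknown.

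The 886143 deposited peaks were chained into regions (minimum overlap 1 bp). A region was gained when 4 of 4 libraries at the later time and 0 of 4 at 0 h called it, and lost in the opposite case. Ranks of column 9 among the 42811 regions called in all libraries, as normal scores, were tested with limma 3.58.1 (R 4.3.3) in 6 groups, with Benjamini-Hochberg adjustment over all of them. Summit and local coverage were recovered by solving the fold and the Poisson p for whole reads, with a match to the deposited −log10 p within 0.001 at 100% of them. Python 3.11.15 with pandas 2.3.3 and scipy 1.17.1 was used, and the counting and fits were tested on simulated data. The members and lists were chosen with earlier results of these data known. Regions given with values in every library are those gained or lost, those called in all libraries, those that separate the genotypes across all times, and up to 3 further ones per window called most often. Alternatives were an overlap of 100 bp, −log10 q of at least 5, an equal number of peaks, thinned lists, column 7, a centred log2 of column 9, regions called in at least 10 libraries, a replicate block and leaving out each library.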

Additional observations from a re-analysis of the deposited data

How the results depend on the processing

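The 3 Ifit regions gained by 6 h became 1 with a −log10 q of at least 5, beside 6001 of 108444 regions of the series. They became 0 when every list was cut to the same number of top peaks (beside 2706 of 81259). In thinned lists they also became 0 (beside 4743 of 107177). The main count of the series was 6389 of 115231. The 8 called at 6 h only became 3 with equal list lengths. In those lists, members called in WT only numbered 1 at 0 h and 1 at 2 h. Members called in KO only numbered 1 at 2 h and 0 at 6 h. Thinning gave 0 in KO only at 2 h. Shares of all regions for these 6 h only and genotype counts are not given here. The next counts of the rank test are over the whole series. Of 42811 regions 35 were lower at 2 h, with 0 members among them. That count was 18 with column 7 and 15 with the replicate block. Regions of the series that differed between KO and WT numbered 2, also with 0 members among them. That count was 4 with column 7, 1 with the centred log2, 1 with the replicate block and 1 over regions called in at least 10 libraries. Members higher at 6 h numbered 4 by the rank of column 9 and 0 by column 7, where R4 turned to −0.53. Local background rose at the same regions, and the fold and p of a peak both use it. Its part in the difference between columns 7 and 9 was not tested.

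Leaving out 1 library at a time gave 3 to 4 Ifit regions gained by 6 h (as the report names them) and 0 to 1 by 2 h (without KO 2 h replicate 1), and 0 to 1 Rsad2-Cmpk2 regions gained by 6 h. Called in KO only were 1 to 2 members at 0 h, 2 to 4 at 2 h and 2 to 7 at 6 h, and in WT only 0 to 3, 0 to 2 and 0 to 2. Each rule was read over the libraries left, so with a library of that time left out it set 1 library against 2. Shares of all regions under these looser rules are not given here. The highest KO counts came without WT 0 h replicate 1, WT 2 h replicate 1 and KO 6 h replicate 2, and the highest WT counts without WT 0 h replicate 2, KO 2 h replicate 2 and KO 6 h replicate 1. Members higher at 6 h numbered 3 to 4 by rank, 5 to 7 by summit and 8 to 10 by local background. Members that passed as lower at 6 h under an alternative with all 12 libraries were R9 with column 7, I1 and R1. Region I1 did so with the centred log2 of column 9 (−0.38, limma adjusted p = 0.0418) and with summits centred on the library median. Region R1 did so by local background centred likewise. In the other direction, the summit of I12 had a log2 difference of 0.45 without KO 0 h replicate 1, beside 0.26 with all libraries. The local background of I11 had 0.21 without WT 0 h replicate 1, beside 0.14. Over all regions the rank test gave 3280 to 4384 higher and 3128 to 4211 lower at 6 h, 35 to 270 higher and 6 to 50 lower at 2 h, and 0 to 2 that differed between KO and WT. At 2 h the lowest counts came without WT 2 h replicate 2, and each of these fits had 1 library fewer.

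Same-numbered libraries did not deviate together: over 15 pairs the correlation of deviations from group means ran from −0.013 to 0.027, so the numbers give no pairing, and the replicate block left 4 members higher by rank. Coverage is known only where a peak was called, so a region missing from a shallow list may be open below the calling limit.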
